A study of Drosophila melanogaster with 3 samples.

Results

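The 4 genes mub, ps, orb2 and Rbp6 encode RNA-binding proteins that regulate splicing and translation in the nervous system of Drosophila melanogaster. They were chosen by their FlyBase identifiers, FBgn0262737 (mub), FBgn0261552 (ps), FBgn0264307 (orb2) and FBgn0260943 (Rbp6). They are 4 of the 4059 identified genes in a full-length cDNA assembly of fly heads, and 11 of its 4969 isoforms with a gene identifier belonged to them. The RNA came from whole heads of 3-day-old adult w1118 flies, a white-eyed laboratory strain commonly used as wild type, kept at 25 °C and not treated. All 3 PacBio Iso-seq libraries belonged to this 1 group and were pooled before assembly. Each Iso-seq consensus read covers a whole cDNA molecule, and the study combined them with other long reads to ask how the start site of a transcript relates to its exons and its 3′ end. The pooled file holds exon coordinates on the dm6 build with no abundance, so an isoform is present or not found, and neither replicate error nor a test between groups can be given.

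Each of these proteins binds RNA through a well-known domain. The protein of mub (mushroom-body expressed) and that of ps (pasilla, the relative of the mammalian Nova proteins) carry KH domains and act in splicing. Orb2 belongs to the CPEB family, which binds the 3′ UTR of target mRNAs and controls their translation, and is known for its part in long-term memory. Rbp6 is related to Musashi, an RRM protein that represses translation in neural precursors. Transcripts of such genes commonly differ at their transcription start site (TSS), in internal exons and at the site of cleavage and polyadenylation (PAS), which can change both the protein and the 3′ UTR.

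Photoreceptor markers were all found (6 of 6), with 4 of 7 neuronal, 4 of 5 glial, 3 of 4 head fat body and 4 of 4 muscle markers. The neuronal genes elav, brp and para and the glial gene repo had no isoform. None of the 6 matched ovary or testis markers had one. The file held 5272 isoforms in all, with a median spliced length of 2011 nt among those with a gene identifier. Sequencing depth is not known from the file, so for a missing transcript, absence and lack of detection cannot be told apart.

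All 4 genes were large. The annotated locus of Rbp6 (3L:17058774-17238212, minus strand) spanned 179439 nt, and only 4 of 4035 identified genes spanned more. The locus of mub (3L:21844788-21932702, plus strand) spanned 87915 nt, with 54 longer genes. That of ps (3R:9417940-9455500, plus strand) spanned 37561 nt and that of orb2 (3L:8937100-8954463, minus strand) 17364 nt, against a median of 3496 nt. Their introns were long as well. The 31 distinct introns spliced out of the 11 isoforms had a median of 3059 nt and ranged from 54 to 44722 nt, whereas the 15923 distinct introns of the assembly had a median of 90 nt. Of the 31, 7 reached 10 kb, against 3.43% in the assembly. The internal exons were short, with a median of 93 nt over 23 exons, compared with 208 nt over 11700 exons of the assembly, and 4 of the 23 had 60 nt or less, against 3.09% in the assembly.

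The isoforms of each gene started at several sites. Ends within 50 nt at the 5′ side were merged into a TSS and ends within 150 nt at the 3′ side into a PAS. A PAS counted in this way is a merged 3′ end, and whether polyadenylation occurs there was not tested. The study names internal priming and template switching as sources of wrong 3′ ends in most sequencing methods. With the windows of 50 and 150 nt every one of the 4 genes had 2 TSSs, and 226 of 4059 identified genes (5.57%) had 2 or more. At the 3′ side mub had 1 PAS, ps and orb2 had 2 each and Rbp6 had 3. Thus 3 of 4 genes had several PASs, against 7.17% of identified genes, and the same 3 had both several TSSs and several PASs, against 2.73%. A gene with 1 isoform cannot have several ends, and 3460 of the 4059 genes had 1. Among the 599 genes with at least 2 isoforms, 226 had several TSSs, 291 several PASs and 111 both. All 4 genes had at least 2 isoforms (mub 4, Rbp6 3, ps and orb2 2 each), against 14.8%. For orb2 these counts rest on isoform 2, which may belong to an overlapping gene, CG43783. Without it, 3 of 4 genes had 2 TSSs, 2 had several PASs, the same 2 had both, and 3 had at least 2 isoforms.

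The count of genes with both kinds of alternative end rested on isoforms whose 3′ end lay more than 150 nt from every annotated 3′ end of the gene. Without them, 6 isoforms of 3 genes were left and 0 of the 4 genes had several TSSs together with several PASs, against 34 of 3225 genes (1.05%) in the assembly treated alike. The number of TSSs then fell from 8 to 4 and that of PASs from 8 to 3.

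**Figure D1:**
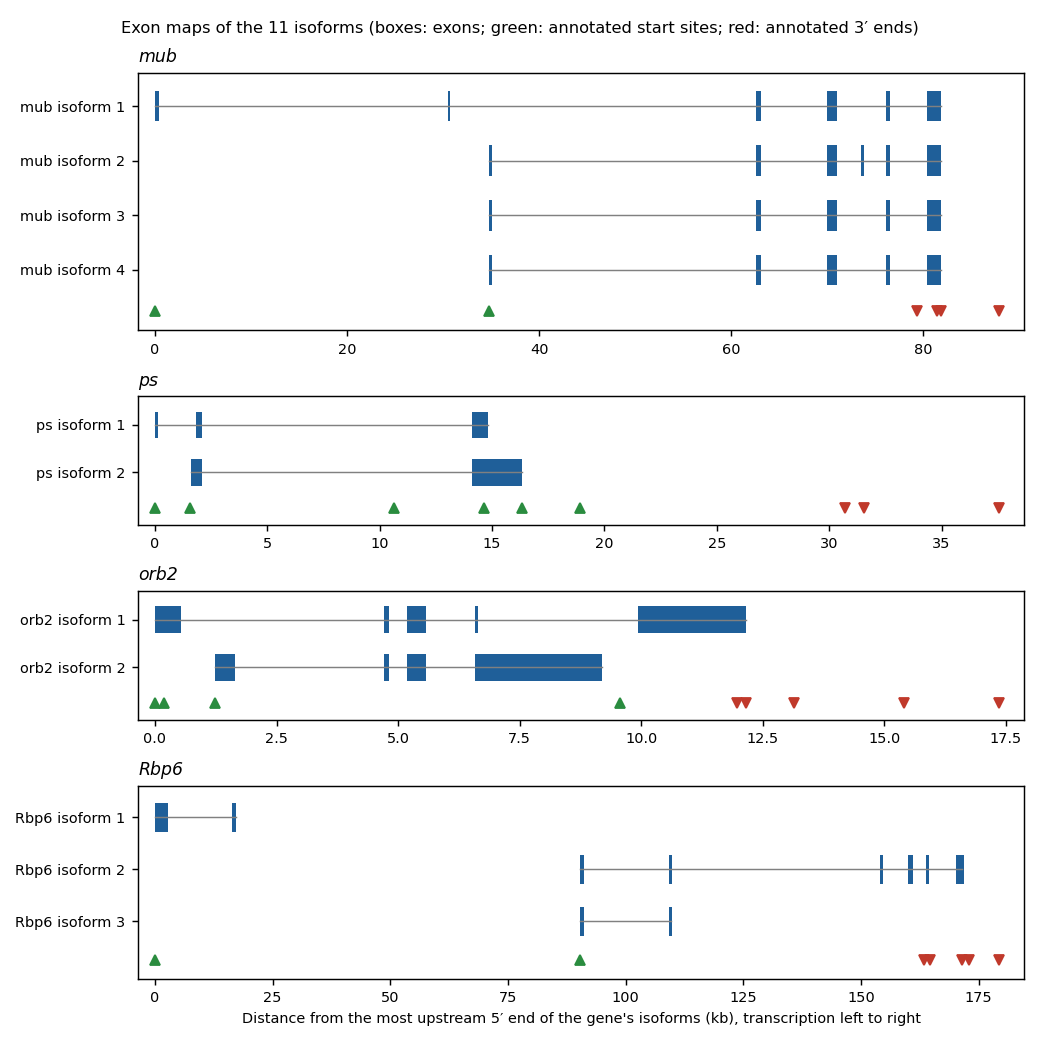
Exon maps of the 11 isoforms, by distance in kb from the most upstream 5′ end of each gene, with transcription from left to right. Boxes are exons (the shortest are widened to stay visible, and close neighbours merge), lines are introns, green triangles mark annotated start sites and red triangles annotated 3′ ends. The 4 mub isoforms share 1 end, and both ps isoforms stop well before the first red triangle.

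The 5′ ends followed the annotation and the 3′ ends often did not. All 11 isoforms began within 1 nt of an annotated 5′ end of their gene, as 95.8% of the 4671 multi-exon isoforms did. This share is fixed in part by the study's use of a promoter database to select reads. The 11 isoforms used 8 of the 14 annotated TSSs of the 4 genes, and 3 of their 17 annotated PASs. Over all identified genes matched to the annotation, isoforms used 61.9% of 6775 annotated TSSs and 56.3% of 5879 annotated PASs. Such shares depend on how many ends are annotated per gene, and genes with equally many annotated ends were not compared. The 3′ end lay more than 150 nt from an annotated 3′ end in 5 of 11 isoforms, against 24.7% of multi-exon isoforms. These 5 were made up of 4 that ended inside an annotated intron and 1 that ended in an exon that is never the last. As counts of all 11 isoforms, the 4 compare with 4.05% of multi-exon isoforms and the 1 with 7.09%. The matching shares among assembly isoforms with a distant 3′ end were not computed.

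Every splice junction of the 11 isoforms was annotated for its gene. Even so, only 2 isoforms matched an annotated splice chain (the series of junctions of a transcript, in order), against 80% of multi-exon isoforms. A further 6 were part of an annotated chain (13% in the assembly), and 3, all of mub, joined annotated junctions in a combination that no annotated transcript has (5.52%). Isoforms of each of these kinds hold only annotated junctions. A full set of annotated junctions was thus usual in the assembly and does not set the 11 isoforms apart. An annotated intron was kept in 2 of 11 isoforms, against 11.1%. An annotated start codon and stop codon of 1 transcript, a multiple of 3 nt apart, were both present in 6 isoforms, against 84.7% of 4664 isoforms of genes with coding annotation. The other 5 held a start codon and no stop codon, against 13.6%. They are the 5 with a distant 3′ end, and each ended before every annotated stop codon of its gene. All 5 are also among the 6 partial chains, so these counts are not separate observations.

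The isoforms of mub had different starts, a shared end and different internal exons. Isoform 1 began at 21844789 and isoforms 2, 3 and 4 at 21879578, the 2 annotated TSSs of the gene. All 4 ended at 21926699, one of 4 annotated PASs, 6003 nt before the most distal one at 21932702. The gene thus used both of its annotated TSSs and 1 of its annotated PASs. From the stop codon to this end they carried 1435 nt, where annotated 3′ UTRs of mub range from 926 to 9514 nt. The 3′ UTR made up 40.7% (isoform 2) to 42.6% (isoform 4) of the spliced length.

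The upstream start of mub brought in longer introns and one more exon. Isoform 1 crossed 30061 nt to an exon of 29 nt, the shortest internal exon of the 4 genes (3L:21875297-21875325), and then 32020 nt to the exon with the start codon. The other isoforms crossed 27404 nt from their first exon to that same exon. The start codon at 21907822 is that of all 12 annotated transcripts. The leader before it had 952 nt in isoform 1 and 840 nt in the others. Isoforms from the 2 TSSs thus differed in the 5′ UTR and shared the first codon.

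Of the 14 distinct junctions of mub, counted over leader and coding region together, 6 were shared by all 4 isoforms. These 6 all lie inside the coding region. The remaining differences between isoforms 2, 3 and 4 were those of a cassette exon and of a splice acceptor. The cassette exon (3L:21918336-21918476) has 141 nt, or 47 codons, was present in isoform 2 alone and is annotated in 3 of 12 transcripts. The acceptors at 21915102 and 21915114 lie 12 nt apart, or 4 codons. Isoforms 1, 2 and 3 used the former, annotated in 7 transcripts, and isoform 4 used the latter, annotated in 5. Both changes keep the reading frame.

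These choices gave proteins of 3 lengths. Isoform 2, with the chain of mub-RN, spans 415 residues. Isoforms 1 and 3 share coding exons for 368 residues, although they start 34789 nt apart. Isoform 4 spans 364 residues, and its coding exons are those of no annotated transcript. The spliced lengths were 3494, 3523, 3382 and 3370 nt for isoforms 1 to 4.

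Other annotated variants of mub were not found. After the donor at 21920987 the annotation has 4 acceptors, and all 4 isoforms used the one at 21921042. It is annotated in 3 transcripts, while the others lie 12, 15 and 51 nt further on and 4 transcripts keep this intron of 54 nt. All isoforms had the last exon from 21925180, as 7 annotated transcripts do. The alternative last exon from 21922579, with the stop codon at 21923188 in 5 transcripts and proteins of 539 to 573 residues, was used by none.

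Neither ps isoform reached a stop codon. The gene has 18 annotated transcripts with 6 TSSs and 3 PASs, and the isoforms used 2 of the TSSs, 0 of the PASs and 2 of 24 annotated junctions. Isoform 1 ran from 9417941 to 9432773 in 3 exons, with 1070 nt. Isoform 2 ran from 9419522 to 9434266 in 2 exons, with 2764 nt. Both crossed the same intron of 11981 nt and contained the start codon at 9432722, which is that of 8 annotated transcripts.

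Only a small part of the ps coding region was covered. Isoform 1 had 1018 nt before the start codon and 52 coding nt, 3.03% of the longest annotated coding region from that codon (1716 nt). It ended inside the exon with the start codon, 15876 nt from the nearest annotated 3′ end. Isoform 2 had 1219 nt before the start codon and 118 coding nt, or 6.88%. Its last exon of 2238 nt then ran 1427 nt past the annotated 5′ splice site. The intron it entered has 7841 to 12204 nt, depending on the acceptor, and its end lay 14383 nt from an annotated 3′ end.

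Both ps 3′ ends lay near annotated TSSs that the ps isoforms did not use. The gene has 6 annotated TSSs, and how many 3′ ends of the assembly lie this close to one was not computed. The end of isoform 2 coincided with the annotated 5′ end at 9434266 (0 nt apart), which 3 transcripts use. That of isoform 1 lay 171 nt from the annotated 5′ end at 9432602. No ps isoform began at either site, nor at 9428561 or 9436835. The 4 downstream start codons (9434404, 9436968, 9440924 and 9441416) were in no isoform assigned to ps. The proteins from the start codon at 9432722 were entered and completed in 0 isoforms, so no annotated ps protein was represented in full.

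The isoforms of orb2 separated into a complete mRNA and one that ended in an intron. Isoform 1 began at 8954463 and ended at 8942312, within 1 nt of an annotated PAS. With 5 exons and 3303 nt it had the chain of orb2-RB. It spans 704 residues in 2115 nt from start to stop codon, 64% of its length, with 609 nt before and 579 nt after. Past that stop codon, isoform 1 also contains in its last exon the annotated stop codons for 709 and 769 residues from the same start codon. Its 3′ end lay 5212 nt before the most distal annotated PAS at 8937100, and annotated 3′ UTRs reach 5791 nt. Its first exon kept an intron of 125 nt (3L:8954253-8954377) that orb2-RD removes.

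Isoform 2 of orb2 began at 8953234, the TSS of 4 annotated transcripts, and ended at 8945263. It shared the start codon at 8949681 with isoform 1 and 2 introns, of 376 and 993 nt. The next intron, of 3307 nt in 6 annotated transcripts, was removed in isoform 1. In isoform 2 the last exon ran 2565 nt into it, 77.6% of its length. The isoform had 3544 nt, of which 494 lay before the start codon and 485 were coding, 21% of the longest annotated coding region. Its end lay 2764 nt from an annotated 3′ end and 370 nt from the annotated 5′ end at 8944893, the start of orb2-RA. That transcript has a start codon of its own for 551 residues, contained in no isoform.

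The gene assignment of isoform 2 is uncertain. CG43783 (FBgn0264305, 3L:8932235-8954272) lies on the same strand and is annotated with all 3 of its junctions and with its 5′ end (0 nt apart). It also has 3 of the 4 junctions of isoform 1, whose 5′ end lay 191 nt from the nearest of CG43783. The file named no isoform for CG43783.

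Of the 3 isoforms of Rbp6, 1 held a complete coding region. Its 2 annotated TSSs lie at 17238212 and 17147969, and both were used. Isoform 1 started at the former, and isoforms 2 and 3 at the latter. The 3 isoforms each had a 3′ end of their own. The junctions covered 10 of the 20 annotated for the gene.

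Isoform 2 of Rbp6 ran over 81221 nt of genome in 10 exons that add up to 1693 nt. Exons made up 2.08% of this span, and only 0.235% of multi-exon isoforms had a lower share. The median was 60.9%. Its introns had 76 to 44722 nt, and its exons included ones of 36 and 49 nt. The first exon of 863 nt is all leader, and the start codon at 17128971 opens the second exon. From there 774 nt led to a stop codon, for 257 residues, with 56 nt after it. It ended at 17066749, within 1 nt of an annotated PAS, where annotated 3′ UTRs range from 57 to 6893 nt.

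Isoform 3 of Rbp6 shared the first exon, the first intron of 18135 nt and the start codon of isoform 2. It then ran 323 nt into the next intron, the one of 44722 nt, 0.722% of its length, and ended at 17128556. With 1279 nt, it held 93 coding nt, 12% of the longest annotated coding region from that codon. Its end lay 53650 nt from an annotated 3′ end.

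Isoform 1 of Rbp6, the longest of the 11 isoforms with 3777 nt, began 90243 nt upstream of the other isoforms. Its first exon of 2861 nt kept an intron of 1769 nt that 3 annotated transcripts remove, and 2775 nt preceded the start codon at 17235437. One intron of 13509 nt was removed. The last exon passed its annotated donor by 875 nt, 2.06% of an intron of 42426 nt, and ended at 17220927, 146021 nt from an annotated 3′ end. It held 127 coding nt, 8.48% of the longest annotated coding region from this codon. The longer Rbp6 proteins, annotated with 369, 371 and 499 residues from this codon, were thus entered at their first codons and completed in 0 isoforms.

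**Figure D2:**
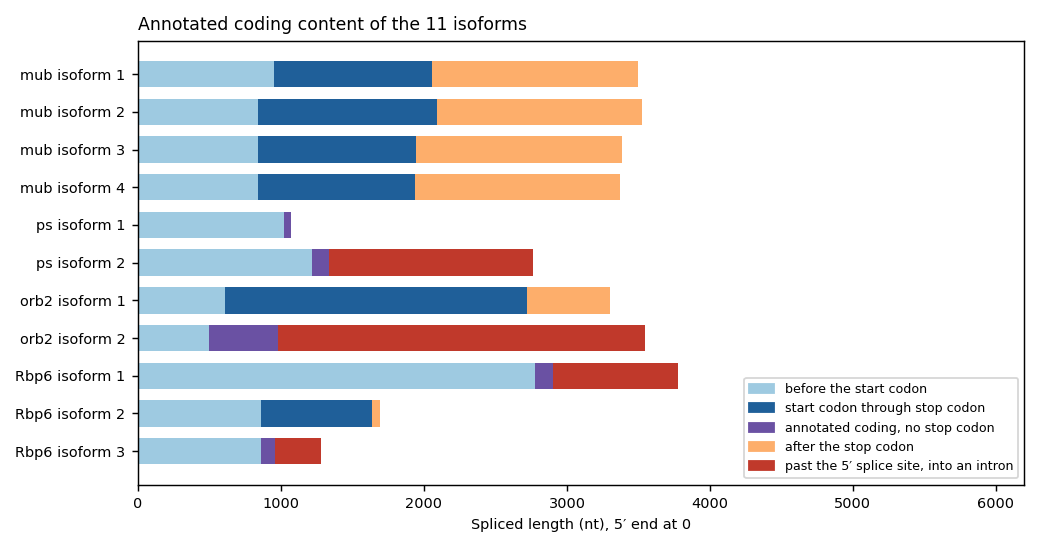
Spliced length in nt of the 11 isoforms, with the 5′ end at 0, divided by the annotated codons they contain and by the sequence past an annotated 5′ splice site. The 4 mub isoforms, orb2 isoform 1 and Rbp6 isoform 2 hold a start and a stop codon, while the other 5 hold 52 to 485 coding nt and no stop codon.

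The ends in introns differed in how far they ran past the splice site. In the assembly 189 isoforms of 152 genes ended in an annotated intron, and 154 of them (81.5%) had a start codon without a stop codon, as all 4 isoforms of ps, orb2 and Rbp6 did. For the 185 whose last exon crossed an annotated 5′ splice site, the median length past it was 445 nt, with a lower quartile of 154 nt and an upper one of 1077 nt. The 323 nt of Rbp6 isoform 3 lay below this median and the 875 nt of Rbp6 isoform 1 above it. The 1427 nt of ps isoform 2 and the 2565 nt of orb2 isoform 2 lay above the upper quartile, with 30 and 10 larger values. The study describes a filter on the 3′ ends of each method's assembly, and no source used here says whether this file is from before or after it.

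**Figure D3:**
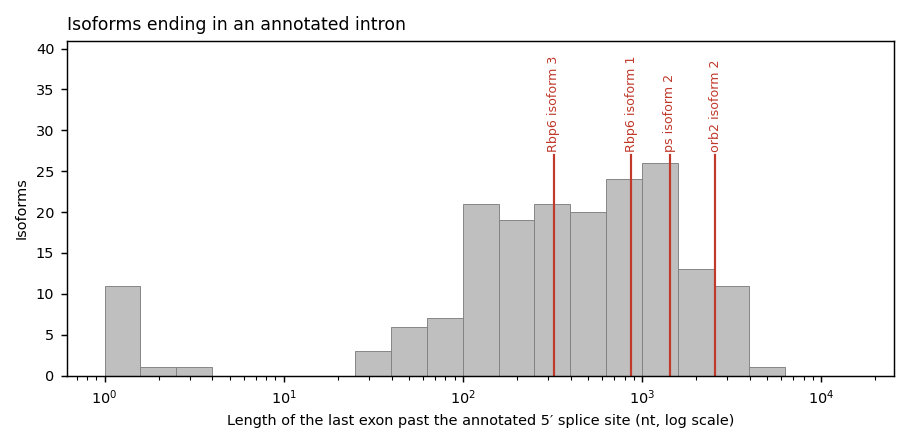
Number of isoforms by the length of the last exon past the annotated 5′ splice site (nt, log scale) for the 185 isoforms of the assembly that end in an intron beyond it. Red lines mark Rbp6 isoform 3 (323 nt), Rbp6 isoform 1 (875 nt), ps isoform 2 (1427 nt) and orb2 isoform 2 (2565 nt).

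Start and end sites were combined differently in the 4 genes. In mub, both TSSs were found with 1 PAS. In ps and in orb2, each TSS had a single isoform, and the 2 isoforms ended at different merged 3′ ends. Of these ends, 0 in ps and 1 in orb2 lay at an annotated PAS. In Rbp6, the upstream TSS was found with 1 PAS and the downstream TSS with 2 others. Together the 4 genes had 8 TSSs, 8 PASs and 9 TSS-PAS combinations. Without the 5 isoforms that ended over 150 nt from annotated 3′ ends, 4 combinations were left, with none in ps. The file gives no read numbers by which to weigh these combinations.

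A list of other regulators of splicing, mRNA localization and translation, with 65 distinct names of which 64 matched the annotation, gave a setting for the 4 genes. Isoforms were found for 40 of the 64 (62.5%), against 28.8% of 13986 annotated protein-coding genes. Of these 40 genes, 6 had several TSSs, 11 had several PASs, 3 had both and 20 had at least 2 isoforms. Their median was 1.5 isoforms, against 1 for all identified genes. The closest relatives of Orb2 and Rbp6 on the list, orb and msi, had no isoform, nor did elav, fne, pum, Fmr1 or Imp. In whole heads, few cells that express a gene and little RNA per cell cannot be told apart.

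The listed genes with several TSSs and several PASs were sm, Hrb98DE and AGO1. sm, a relative of hnRNP L, and Hrb98DE, an hnRNP A-type protein, had 6 isoforms each with 2 TSSs and 2 PASs. AGO1, which carries microRNAs to their targets, had 3 isoforms with 2 TSSs and 2 PASs. Syp, related to hnRNP Q and R, had 4 isoforms from 1 TSS and 3 PASs. bru1 and Hrb27C had 3 isoforms with 2 TSSs and 1 PAS, as in the pattern of mub, and Sxl, the switch gene of sex determination, had 3 with 1 TSS and 2 PASs.

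Ends in introns were also found on the list. Of 73 multi-exon isoforms of the list, 5 (6.85%) ended in an intron, in Syp, sm, bol and shep, and 58 (79.5%) held a start and a stop codon. For mub, ps, orb2 and Rbp6 the counts were 4 and 6 of 11, and the difference from the list was not tested.

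**Figure D4:**
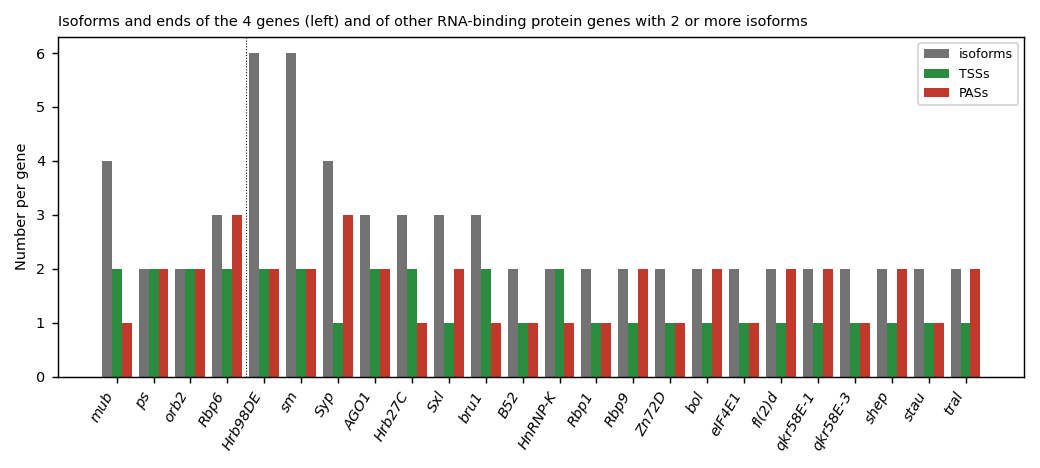
Numbers of isoforms, TSSs and PASs per gene (bars, from 0) for the 4 genes left of the dotted line and for the 20 other listed genes with at least 2 isoforms. Left of the line all 4 genes have 2 TSSs, and right of it 6 of 20 do.

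The genes most like each of the 4 were those with the same numbers of isoforms, TSSs and PASs and the closest median spliced length in the pooled assembly. For mub (median 3438 nt) they were snu (3416 nt), crc (2209 nt) and Galphaq (1887 nt), among 5 genes with 4 isoforms, 2 TSSs and 1 PAS. For ps (1917 nt) they were CG7220 (1921 nt), egh (1934.5 nt) and Act5C (2002 nt), among 50 genes with 2 of each. For orb2 (3423.5 nt), among the same 50, they were atos (3437.5 nt), Lk6 (3461.5 nt) and klar (3303.5 nt). For Rbp6 (1693 nt) they were norpA (1658 nt), Spn42Da (1504 nt) and CycG (3062 nt), among 9 genes with 3 isoforms, 2 TSSs and 3 PASs.

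The libraries were selected for transcripts above 3 kb, and the isoforms fell on both sides of that size. Their spliced lengths ranged from 1070 to 3777 nt with a median of 3370 nt, and 4 of 11 lay below 3 kb (both ps isoforms and Rbp6 isoforms 2 and 3). Most isoforms with a gene identifier lay below 3 kb as well, since their median was 2011 nt. The longest isoform of the assembly had 8621 nt. The longest annotated transcripts of the 4 genes have 11975 nt (mub), 10124 nt (ps), 8400 nt (orb2) and 9015 nt (Rbp6). No isoform reached the most distal annotated 3′ end of its gene, and the shortfall ranged from 5212 nt (orb2 isoform 1) to 162153 nt (Rbp6 isoform 1). How many isoforms of the assembly reach that end of their gene was not computed.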

How the data were processed

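Total RNA (0.5 µg) of w1118 heads was converted to cDNA, amplified with 14 PCR cycles, selected above 3 kb and read on 3 SMRT cells. As the methods of the study describe, the authors pooled the replicates, aligned consensus reads to dm6 with STARlong and built isoforms with FLAIR, from at least 2 full-length reads and with up to 5 ends per splice chain. The values of the deposited file are of an other unit, exon coordinates on dm6 rather than expression. Its last number per isoform is unexplained and was left out.

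The reference annotation was that of Ensembl release 115 for BDGP6.54, the same assembly. Of 2233 plus-strand multi-exon isoforms with a 5′ end on the annotation, 2216 began 1 nt right of it, so ends were called equal within 1 nt. Of 4059 gene identifiers 4035 matched. The calls of chains, ends and codons were tested on simulated isoforms. The planned reading of frames on the genome was replaced by the presence of an annotated start and stop codon a multiple of 3 nt apart, since no sequence was used. Calculations used Python 3.11.15 and numpy 2.4.6, and figures matplotlib 3.10.9. Intervals of depth cannot be given, as reads per library are not given in the sources used here.

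The genes and lists were chosen with earlier results of these data known. Named genes were the 4 genes with every isoform, listed regulators with several TSSs and PASs or among the 6 with most isoforms (ties kept), up to 3 genes most like each, and overlapping genes that hold an isoform end. Genes without an isoform named beside the list were chosen after their values were seen. Other windows, a 3′ end filter and other definitions were tried as alternatives.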

Additional observations from a re-analysis of the deposited data

Results flagged for a closer look

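Among the 303 isoforms to which the file gives no gene identifier, and which no comparison above uses, 4 single-exon isoforms had an end within 1 nt of an annotated 5′ end of ps, orb2 or Rbp6. In the whole assembly 254 of these 303 (83.8%) had an end at such a site of some gene. At ps, an isoform labelled plus (3R:9417941-9422286, 4346 nt) shared the 5′ end of ps isoform 1 and extended 4286 nt past its first splice donor. Another at ps, labelled minus on this plus-strand gene (3R:9436835-9438295, 1461 nt), lay at an annotated start that no ps isoform used and passed the donor by 1177 nt. At orb2, an isoform labelled minus like the gene (3L:8951982-8953234, 1253 nt) shared the 5′ end of isoform 2 and passed its donor by 837 nt. At Rbp6, an isoform labelled plus on this minus-strand gene (3L:17144861-17147969, 3109 nt) shared the 5′ end of isoforms 2 and 3 and passed the donor by 2246 nt. The strand label was that of the gene in 2 of the 4 and the opposite in 2. Since a single exon has no junction, the strand could not be checked on these isoforms.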

How the results depend on the processing

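Across 9 counts and 30 alternatives, 25 values stayed within 1.5 times the main value and 5 did not. Leaving out isoforms that end over 150 nt from annotated 3′ ends lowered the TSSs of the 4 genes from 8 to 4, their PASs from 8 to 3, their TSS-PAS combinations from 9 to 4 and the genes with several TSSs and several PASs from 3 to 0, since 5 isoforms were removed. Requiring 2 isoforms lowered the listed regulators found from 40 to 20. Other merging windows (10 and 100 nt for 5′ ends, 50 and 300 nt for 3′ ends) gave the same counts, as did limits of 50 and 300 nt for a distant 3′ end and of 50 nt for a 5′ end on the annotation. Chosen after seeing the data, requiring identical coding exons gave 5 complete coding regions in place of 6, and allowing no tolerance at exon edges gave 3 ends in introns in place of 4. Leaving out orb2 isoform 2, also chosen after seeing the data, gave 7 TSSs, 7 PASs, 8 combinations and 2 genes with several of both. The planned counts of poly(A) signals, A-rich stretches and longest reading frames were not run, because they need a genome sequence. No paired analysis was possible because the 3 libraries form 1 group and were pooled, which also leaves no replicate to leave out. Depth is unknown, so a start, exon or end not found here sets no limit on its use in heads.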
